A study of Homo sapiens with 4 samples.

Results

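The 36 genes described here belong to the glutathione, thioredoxin and NRF2 antioxidant systems. They were chosen by name, with earlier results of these data known, and all 36 were found among the 57820 gene identifiers of the files. Their mRNA was measured by sequencing of polyadenylated RNA from Daoy, a human cell line established from a medulloblastoma. 1 library was labelled ARID1B shRNA and came from a polyclonal cell population carrying the lentiviral vector tet-pLKO-puro, from which doxycycline induces a short hairpin RNA against ARID1B, a subunit of SWI/SNF chromatin remodelling complexes. The other 3 libraries, numbered 1, 2 and 3, were labelled wild type. Cells with the empty vector and parental Daoy cells are both named as comparators in the design text, but no label ties either kind to a given wild-type library. Doxycycline was given at 1 µg/ml for 72 h, per the labels, which list this for every library. Whether the wild-type libraries are separate cultures is not stated, so the p-values rest on the spread between these libraries alone, which may be technical.

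NRF2, encoded by NFE2L2, is a transcription factor that KEAP1 holds in the cytoplasm and delivers to the proteasome. Oxidants and electrophiles modify KEAP1, NRF2 then accumulates, pairs with small MAF proteins such as MAFG and binds antioxidant response elements, sites that BACH1 can occupy as a repressor. Its known targets make glutathione, reduce thioredoxin, regenerate NADPH and break down quinones and haem.

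Library depth was 8792848 reads assigned to genes in the library labelled ARID1B shRNA and 12619786, 13228587 and 15390106 in wild-type libraries 1 to 3. Levels are CPM (read counts divided by library size, scaled between libraries by TMM), which are shares of the RNA sequenced, so that fewer molecules per cell and fewer cells holding them cannot be told apart. The label was not borne out by the mRNA of its target, since ARID1B was not lower. It stood at 175 CPM in the library labelled ARID1B shRNA and at 164, 88.0 and 72.9 CPM in wild-type libraries 1 to 3 (log2 fold change 0.69, SE 0.46, edgeR adjusted p = 0.399). Without wild-type library 1 the ARID1B log2 fold change was 1.12 (edgeR adjusted p = 0.026), and it was -0.18 (edgeR adjusted p = 0.889) once each library's dependence on GC content and transcript length was removed. Of 12 genes that mark the cerebellar granule lineage and medulloblastoma, 7 had enough reads to be tested, among them ZIC1, ZIC2, PAX6 and OTX2. ATOH1 was at 0 counts in every library, and BARHL1, NEUROD1, EOMES and CNTN2 had at most 8 counts in any library. The 12 summed to 91.7 CPM in the library labelled ARID1B shRNA and to between 66.5 and 76.5 CPM in wild type, but they did not move together. ZIC1, PAX6, SYP and NES lay within the wild-type range. OTX2 stood below all 3 wild-type libraries, at 3.65 CPM against 7.45, 4.79 and 5.27 CPM (edgeR adjusted p = 0.36). GLI2 stood above all 3, at 14.8 CPM against 8.38, 5.8 and 9.76 CPM (edgeR adjusted p = 0.189). Its log2 fold change was 0.89 as counted and -0.16 once the trend was removed. ZIC2 itself was higher, at 24.8 CPM against 8.93, 10.6 and 8.14 CPM (log2 fold change 1.43, SE 0.26, edgeR adjusted p = 0.043; 0.77 and 0.22 once the trend was removed; adjusted p = 0.0629 and 0.0923 without wild-type libraries 2 and 3). Marker genes of blood summed to 0.570 CPM in the library labelled ARID1B shRNA and to at most 0.464 CPM in wild type. Endothelial markers summed to 10.8 CPM against 15.5 to 18.6 CPM in wild type. Most of this was TEK, at 9.92 CPM against 15.7, 15.2 and 17.8 CPM, while CDH5 was at 1 count in the library labelled ARID1B shRNA and 0 in wild type. Epithelial markers summed to 2.74 CPM against 7.14 to 16.9 CPM. Most of this was KRT14, at 1.82 CPM against 4.35, 8.04 and 14.5 CPM, while CDH1 was at 0 counts in the library labelled ARID1B shRNA. The part of these markers in the results was not tested. GC content separated the libraries, with a median log2 fold change of -0.30 in the decile of tested genes with the lowest GC content and 1.32 in the decile with the highest, and the value with that trend removed is given below where it changes a call, turns a sign or moves a linear fold change by over 1.5 times, and for some other genes.

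Promoter sequences are shown for the members that rose in the test and held a matching motif, with GCLM, the closest to the threshold among those that did not pass, and PGD, whose level lay within the wild-type range. RefSeq windows of 300 bases (250 before and 50 after the start of transcription, build GRCh38.p14) were matched for 28 of the 36 members. GSS, GSR, ABCC1, TXN2, PRDX1, PRDX6, SOD1 and HMOX1 were not matched. For each member only the first listed window was used, while the share over all promoters counts every window. Other starts of the same gene were not searched, and which start is in use in Daoy was not tested. Capitals mark the core of the antioxidant response element, TGACNNNGC on either strand, and the AP-1 motif TGANTCA, which reads the same on both strands. In ME1 the first match, TGACTCAGC, is both motifs at once. TXNRD1 lies at chr12:104215529-104215828 (+), ME1 at chr6:83431002-83431301 (-), OSGIN1 at chr16:83952990-83953289 (+), GCLM at chr1:93909381-93909680 (-) and PGD at chr1:10398814-10399113 (+), each read 5′ to 3′ along the gene.
TXNRD1: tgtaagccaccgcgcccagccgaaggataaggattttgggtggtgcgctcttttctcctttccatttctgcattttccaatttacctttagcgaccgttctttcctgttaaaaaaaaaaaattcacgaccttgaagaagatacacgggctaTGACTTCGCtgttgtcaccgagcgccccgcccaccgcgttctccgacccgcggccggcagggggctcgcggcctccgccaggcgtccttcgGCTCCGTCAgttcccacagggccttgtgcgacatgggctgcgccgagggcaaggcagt
ME1: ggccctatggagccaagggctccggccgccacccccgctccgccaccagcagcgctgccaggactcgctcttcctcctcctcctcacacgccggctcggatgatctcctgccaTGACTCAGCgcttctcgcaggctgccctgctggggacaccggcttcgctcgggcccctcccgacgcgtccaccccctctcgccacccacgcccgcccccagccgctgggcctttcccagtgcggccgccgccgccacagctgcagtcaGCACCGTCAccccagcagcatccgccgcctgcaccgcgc
OSGIN1: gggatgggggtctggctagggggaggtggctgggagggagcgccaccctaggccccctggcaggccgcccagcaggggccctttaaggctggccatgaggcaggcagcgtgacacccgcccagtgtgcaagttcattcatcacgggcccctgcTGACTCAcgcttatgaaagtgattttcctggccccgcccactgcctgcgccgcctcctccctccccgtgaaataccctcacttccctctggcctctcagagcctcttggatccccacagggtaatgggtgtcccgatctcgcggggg
GCLM: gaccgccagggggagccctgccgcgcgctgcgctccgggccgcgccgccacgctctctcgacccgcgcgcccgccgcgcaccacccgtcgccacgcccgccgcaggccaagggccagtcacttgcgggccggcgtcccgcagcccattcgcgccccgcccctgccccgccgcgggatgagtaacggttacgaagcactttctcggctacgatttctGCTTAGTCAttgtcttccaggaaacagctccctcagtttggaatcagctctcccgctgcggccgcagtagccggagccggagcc
PGD: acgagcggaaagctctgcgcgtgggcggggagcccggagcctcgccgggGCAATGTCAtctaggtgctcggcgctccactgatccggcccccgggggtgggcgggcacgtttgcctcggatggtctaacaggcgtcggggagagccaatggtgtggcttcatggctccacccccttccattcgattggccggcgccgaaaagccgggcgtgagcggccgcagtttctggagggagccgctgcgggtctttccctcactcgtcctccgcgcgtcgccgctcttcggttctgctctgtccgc

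The antioxidant response element core was found in the windows of GCLM, TXNRD1, PGD and ME1, 14.3% of the 28 members, against 13.3% of all 35116 windows of that length, so the members' share was close to that of promoters in general. Counted from the start of transcription of the window used (there is no base 0), the matches in TXNRD1 lay at bases -99 to -91 and -8 to 1. In ME1 they lay at -137 to -129 and 12 to 20, in GCLM at -34 to -26 and in PGD at -201 to -193. An AP-1 match was found in ME1 and in OSGIN1 (-97 to -91), 7.14% of the members against 7.71% of all windows. A C/EBP-ATF core, TGATGNAA on either strand, was found in GPX8, 3.57% of the members against 3.62%. The windows of NQO1, SRXN1, MAFG, NFE2L1 and GPX1, which also rose, held none of these motifs, which says nothing of sites elsewhere in those genes.

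Among the 36 members, 9 rose in the library labelled ARID1B shRNA, 0 fell and 27 did not pass the test (edgeR's quasi-likelihood test, adjusted over all 17024 tested genes, threshold 0.05). The 9 make 25% of the members, while 3.65% of all tested genes rose, 0.834% fell and 4.48% did either. Since the members were chosen with earlier results of these data known, the gap between these shares is a description and not a test. They were TXNRD1, SRXN1, HMOX1, NQO1, OSGIN1, ME1, MAFG, NFE2L1 and GPX1. The median log2 fold change of the members was 0.50, beside -0.05 for all tested genes. No member was lower at an unadjusted p below 0.05 in edgeR, and 0 fell with DESeq2 or limma-voom, where 11 and 10 members rose, beside 7.85% and 4.61% of all tested genes. SRXN1 passed the filter on low counts only through the library in which it was high, and of the 35 members with at least 10 counts in a wild-type library 8 rose. The library labelled ARID1B shRNA lay above all 3 wild-type libraries for 23 members and below all 3 for 4, whereas 35.4% of tested genes lay above and 37.9% below. Without wild-type library 2 only TXNRD1, SRXN1 and HMOX1 rose (0.836% of all tested genes), without library 3 the number was 6 (2.68%) and without library 1 it was 10 (5.43%). With other scalings, no filter or no robust shrinkage the members that rose numbered 11 with RLE (4.22% of all tested genes), 9 with upper-quartile scaling (3.25%), 16 with no filter (7.40%) and 9 with no robust shrinkage (3.71%). Once the GC and length trend was taken out, 9 members rose, 7 of them the same, whereas 1.93% of all tested genes rose, 1.19% fell and 3.12% did either; MAFG and GPX1 left the list and GCLC and GCLM entered it, and the median of the members was 0.22.

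**Figure D1:**
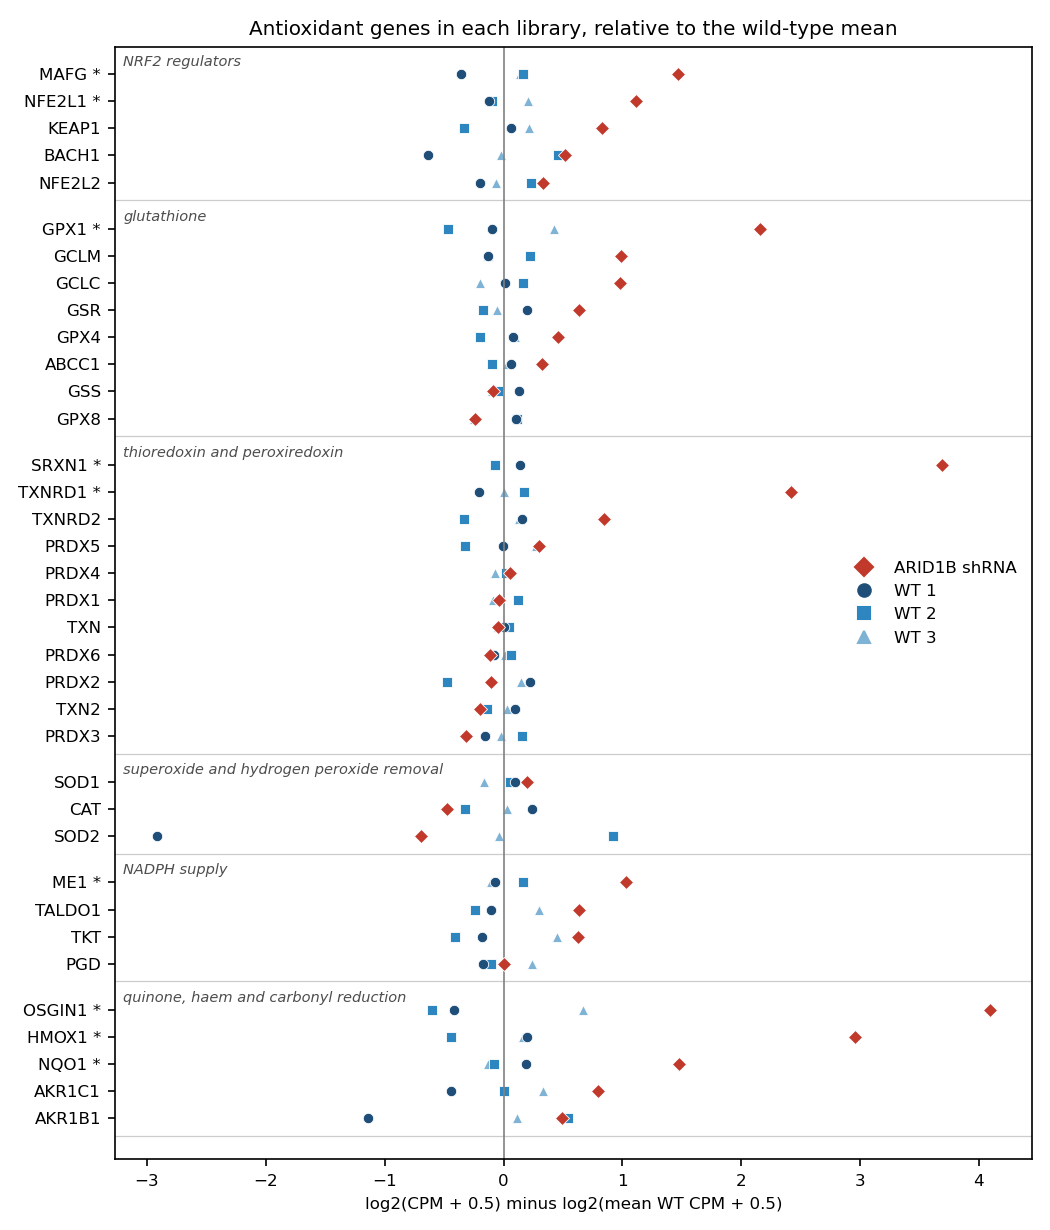
Each row is a member and each point a library; the x axis is log2(CPM + 0.5) minus the log2 of the wild-type mean plus the same pseudocount of 0.5, and an asterisk marks the 9 members that passed the edgeR test. The red diamonds of the library labelled ARID1B shRNA stand to the right of every wild-type point for all 5 NRF2 regulators, of which 2 passed. BACH1 does so only by 189 against 182 CPM, and 35.4% of all tested genes lay above all 3 wild-type libraries. The diamonds of TXN, PRDX1, PRDX2 and PRDX4 lie among the wild-type points.

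Of the 5 regulators 2 rose, beside 3.65% of all tested genes, and NFE2L2 itself was not one of them. NFE2L2 stood at 195 CPM in the library labelled ARID1B shRNA, with an exact 95% Poisson interval of 186 to 204, and at 135, 182 and 148 CPM in wild-type libraries 1 to 3. It was thus above each of the wild-type libraries and nearest to library 2, and the difference of 0.33 on the log2 scale (SE 0.21) did not pass (edgeR adjusted p = 0.377). The mRNA level does not report NRF2 activity, which is known to be set mainly by turnover of the protein. KEAP1, the adaptor that marks NRF2 for degradation, measured 153 CPM in the library labelled ARID1B shRNA and 90.0, 68.4 and 100 CPM in wild type. Its groups did not overlap, but the log2 fold change of 0.83 (SE 0.24) did not pass (edgeR adjusted p = 0.107) and became -0.01 once that trend was removed (0.984); its transcript has a GC content of 60.3%.

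MAFG (ENSG00000197063.6), a small MAF partner of NRF2 whose gene is itself an NRF2 target, was at 193 CPM in the library labelled ARID1B shRNA against 54.0, 77.8 and 76.5 CPM in wild-type libraries 1 to 3. Every wild-type library lay far below, and the log2 fold change was 1.47 (SE 0.24, edgeR adjusted p = 0.035). This call ended once the trend was removed (0.91, SE 0.26, edgeR adjusted p = 0.122), without wild-type library 2 (0.0639) and without library 3 (0.0792). The exons of MAFG overlap those of another annotated gene on the same strand, so its level is uncertain. NFE2L1 (ENSG00000082641.11), which encodes NRF1, a relative of NRF2 anchored in the endoplasmic reticulum and known for driving proteasome genes, was at 509 CPM against 215, 219 and 270 CPM. It was 2.17-fold the wild-type mean (log2 fold change 1.12, SE 0.18, edgeR adjusted p = 0.036). Once the trend was removed its change was 0.77 (edgeR adjusted p = 0.0462), while leaving out wild-type library 2 gave an adjusted p of 0.0774. BACH1, the repressor of antioxidant response elements, was at 189 CPM against 84.8, 182 and 130 CPM, so that it stood barely above wild-type library 2 and the difference did not pass (log2 fold change 0.51, SE 0.41, edgeR adjusted p = 0.47).

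Among the other genes fixed as NRF2 partners or parts of its turnover, 2 of 15 tested (13.3%) rose and 1 fell, beside 3.65% and 0.834% of all tested genes. Without wild-type library 2 the number called in either direction was 1, where 157 of 16746 tested genes were called and 0.836% rose. Without library 1 it was 5, where 1189 of 16809 were called and 5.43% rose. MAFK, another small MAF gene, was at 32.1 CPM in the library labelled ARID1B shRNA against 2.10, 1.39 and 3.32 CPM in wild type (log2 fold change 3.80, SE 0.42, edgeR adjusted p = 0.021; 2.52 with the trend removed, adjusted p = 0.0163). BACH2, a relative of BACH1 known from lymphocytes, fell to 7.19 CPM against 24.9, 20.9 and 24.4 CPM (log2 fold change -1.70, SE 0.27, edgeR adjusted p = 0.0348; 0.0574 and 0.0694 without wild-type libraries 2 and 3). CREBBP, a histone acetyltransferase that binds NRF2, was at 142 CPM against 69.7, 69.4 and 72.4 CPM (log2 fold change 1.01, SE 0.15, edgeR adjusted p = 0.0326). Its log2 fold change was -0.03 once the trend was removed (edgeR adjusted p = 0.947), and the adjusted p was 0.0652 and 0.0667 without wild-type libraries 2 and 3.

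For glutathione, a tripeptide of glutamate, cysteine and glycine that serves as the main small thiol of the cell, the genes of its first synthetic step stood higher and that of its last step did not. GCLC, the catalytic subunit of glutamate-cysteine ligase, was at 126 CPM in the library labelled ARID1B shRNA against 64.2, 71.7 and 55.4 CPM in wild-type libraries 1 to 3. GCLM, its modifier subunit, was at 335 CPM against 154, 197 and 154 CPM. Both were about as far above wild type as each other, at log2 fold changes of 0.98 (SE 0.20) and 0.99 (SE 0.20), and both missed the threshold narrowly (edgeR adjusted p = 0.0535 and 0.0521). Once the GC and length trend was removed they rose, by 1.16 and 1.26 on the log2 scale (edgeR adjusted p = 0.0254 and 0.0168), and they also rose with DESeq2 (adjusted p = 0.00585 and 0.00366). GSS, which adds glycine to complete glutathione, was at 52.4 CPM against 61.1, 54.0 and 51.9 CPM, inside the wild-type range, with a log2 fold change of -0.09 (SE 0.20, edgeR adjusted p = 0.803).

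GSR, the reductase that returns oxidised glutathione to its thiol form with NADPH, was at 147 CPM in the library labelled ARID1B shRNA against 109, 83.9 and 91.2 CPM in wild type. It lay above all 3 without passing (log2 fold change 0.63, SE 0.20, edgeR adjusted p = 0.128). ABCC1, a pump that exports glutathione and its conjugates, was at 129 CPM against 108, 96.2 and 105 CPM (log2 fold change 0.33, SE 0.17, edgeR adjusted p = 0.275); with the trend removed it was -0.04 (0.889).

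The glutathione peroxidases differed among themselves. GPX1 (ENSG00000233276.2), the abundant cytosolic selenoenzyme that removes hydrogen peroxide, was at 73.9 CPM in the library labelled ARID1B shRNA, with a 95% interval of 68.3 to 79.8, against 15.1, 11.6 and 21.9 CPM in wild-type libraries 1 to 3. That is 4.56-fold the wild-type mean and a log2 fold change of 2.18 (SE 0.34, edgeR adjusted p = 0.0351). GPX1 has the highest GC content of the members, 64.2%, and its log2 fold change was 0.76 (SE 0.16) once the trend was removed, where it did not pass (edgeR adjusted p = 0.0692); without wild-type library 2 the adjusted p was 0.0565. GPX4, the selenoenzyme that reduces lipid peroxides in membranes and restrains ferroptosis, was at 146 CPM against 112, 92.4 and 113 CPM. Its log2 fold change was 0.47 (SE 0.19, edgeR adjusted p = 0.192) and turned to -0.73 (SE 0.20, 0.105) once the trend was removed, so its sign depended on the fit. GPX8, a membrane protein of the endoplasmic reticulum that has cysteine in place of selenocysteine, was at 158 CPM against 200, 202 and 157 CPM (log2 fold change -0.24, SE 0.21, edgeR adjusted p = 0.512).

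Genes that supply cysteine for glutathione or take glutathione apart formed the other list with the largest share of changed genes. Of 13 tested 6 (46.2%) rose and 0 fell, beside 3.65% and 0.834% of all tested genes, and the median log2 fold change was 1.82. At an unadjusted p below 0.05 in edgeR 1 was lower, and 0 fell with DESeq2 or limma-voom. Without wild-type library 2 the number called was 1, a rise, where 0.836% of all tested genes rose. SLC3A2, the heavy chain that carries the cystine transporter SLC7A11 to the membrane, was at 482 CPM in the library labelled ARID1B shRNA against 89.0, 102 and 96.3 CPM in wild type (log2 fold change 2.33, SE 0.15, edgeR adjusted p = 0.0149). CBS, which joins homocysteine to serine, was at 176 CPM against 15.5, 17.0 and 27.3 CPM (log2 fold change 3.14, SE 0.32, edgeR adjusted p = 0.0199; 0.0565 without wild-type library 2). CTH, which releases cysteine from the product, was at 68.2 CPM against 13.7, 17.8 and 18.8 CPM (log2 fold change 2.02, SE 0.24, edgeR adjusted p = 0.0216; 0.05 without wild-type library 2). With the trend removed 4 of the 13 rose, with a median of 0.80, beside 1.93% of all tested genes. Of the 22 tested glutathione peroxidases, transferases and glutaredoxins outside the members, 0 rose and 0 fell with edgeR, DESeq2 or limma-voom; at an unadjusted p below 0.05 in edgeR 1 was higher and 4 were lower, and the median log2 fold change was -0.24. With no filter on low counts 4 genes of this list were called in either direction, where 3226 of all 30709 genes were called.

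**Figure D2:**
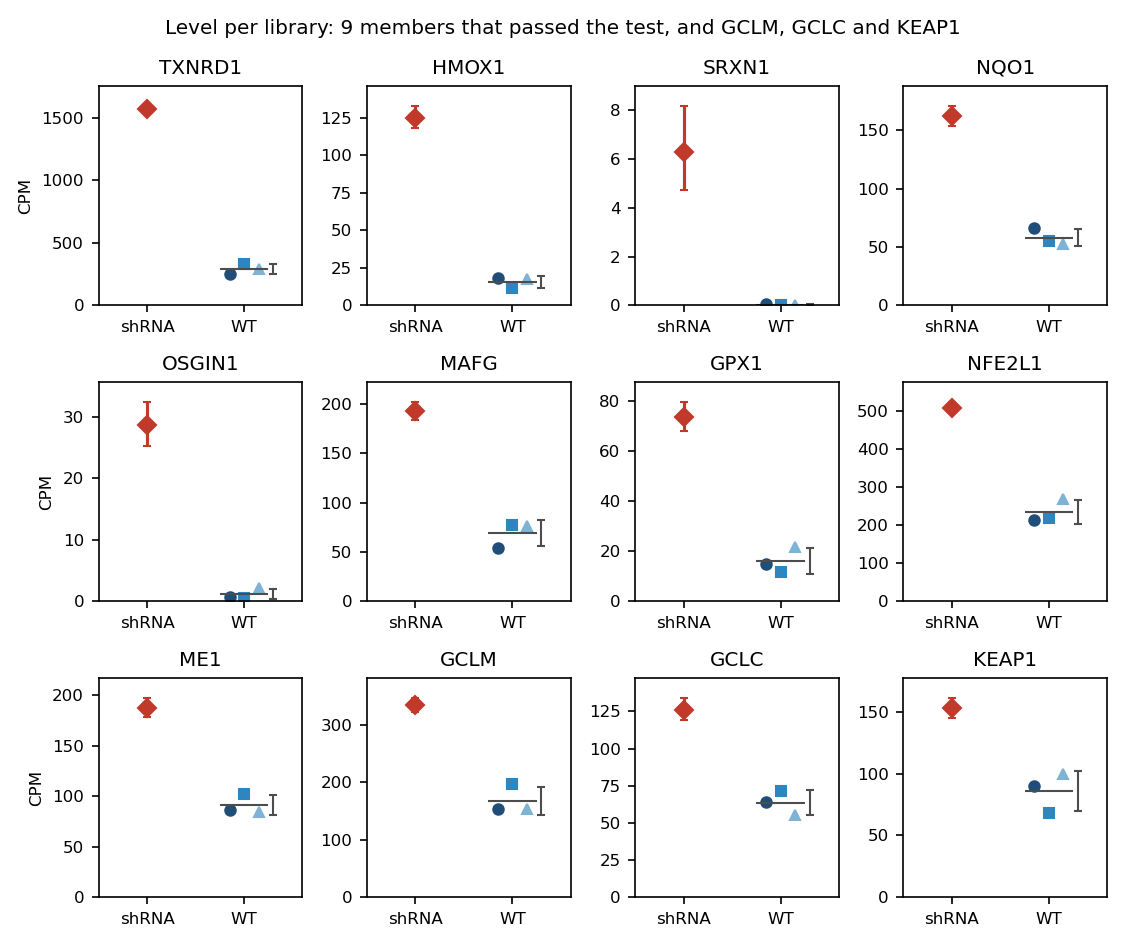
CPM per library, from 0, for the 9 members that passed the test and for GCLM, GCLC and KEAP1; the left point of each panel is the library labelled ARID1B shRNA with its exact 95% Poisson interval, and the right points are wild-type libraries 1, 2 and 3 with their mean (line) and SD (bar, n = 3). In all 12 panels the left point lies above the 3 wild-type points, which follows from the choice of members shown and is no further result.

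In the thioredoxin system the reductase moved and its substrate did not. TXNRD1 (ENSG00000198431.11), the cytosolic selenoenzyme that passes electrons from NADPH to thioredoxin, was at 1567 CPM in the library labelled ARID1B shRNA, with a 95% interval of 1540 to 1593, against 254, 329 and 294 CPM in wild-type libraries 1 to 3. It was 5.36-fold the wild-type mean of 292 ± 37.2 CPM (SD, n = 3), with a log2 fold change of 2.42 (SE 0.18, edgeR adjusted p = 0.0149), and had the 10th smallest p among 17024 tested genes. It rose under every alternative tried, by 2.57 with the trend removed. TXN, the cytosolic thioredoxin, was at 291 CPM against 302, 311 and 291 CPM, within the wild-type range (log2 fold change -0.05, SE 0.15, edgeR adjusted p = 0.87; 0.26 and 0.312 with the trend removed). Per kilobase of the longest annotated transcript, the level of TXNRD1 was 366 CPM per kb in the library labelled ARID1B shRNA beside 335 for TXN, a ratio of 1.09, whereas the ratio was 0.171, 0.215 and 0.206 in wild-type libraries 1 to 3.

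The mitochondrial counterparts were lower in level. TXN2, mitochondrial thioredoxin, was at 54.9 CPM in the library labelled ARID1B shRNA against 67.4, 57.4 and 64.6 CPM in wild type, below all 3 but within the error (log2 fold change -0.20, SE 0.19, edgeR adjusted p = 0.543; -0.56 and 0.121 with the trend removed). TXNRD2, the mitochondrial reductase and also a selenoenzyme, was at 25.1 CPM against 15.4, 10.8 and 15.1 CPM. Its log2 fold change of 0.87 (SE 0.28, edgeR adjusted p = 0.136) turned to -0.33 with the trend removed (0.439), and its transcript has a GC content of 62.6%. The selenoenzymes among the members thus did not share a direction that held in both fits, and TXNRD1 alone among the 4 of them passed in each. Of 17 other tested selenoproteins and genes of selenocysteine insertion 1 (5.88%) rose, beside 3.65% of all tested genes. SELENOH, a nucleolar selenoprotein, was at 17.6 CPM against 1.71, 2.55 and 1.76 CPM (log2 fold change 3.13, SE 0.34, edgeR adjusted p = 0.0199).

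None of the 6 peroxiredoxins, thiol peroxidases that destroy hydrogen peroxide, passed the test with edgeR, DESeq2 or limma-voom. PRDX1, the most abundant of them per transcript length, was at 413 CPM in the library labelled ARID1B shRNA against 413, 461 and 399 CPM in wild-type libraries 1 to 3. PRDX6, which uses glutathione rather than thioredoxin, was at 309 CPM against 316, 350 and 337 CPM. Their log2 fold changes were -0.04 (SE 0.17) and -0.11 (SE 0.16), with an edgeR adjusted p of 0.909 and 0.687. PRDX3, the mitochondrial form, was at 87.0 CPM against 97.0, 121 and 107 CPM, below all 3 wild-type libraries without passing (log2 fold change -0.32, SE 0.20, edgeR adjusted p = 0.359). PRDX4, the form of the endoplasmic reticulum, was at 48.0 CPM against 48.0, 46.9 and 44.0 CPM, and PRDX2, a cytosolic form, at 34.0 CPM against 43.0, 26.3 and 40.7 CPM; both stood at about the wild-type values (edgeR adjusted p = 0.887 and 0.861). PRDX5, found in several compartments, was at 122 CPM against 99.0, 79.1 and 120 CPM. Its log2 fold change was 0.30 (SE 0.25, edgeR adjusted p = 0.491) and turned to -0.69 (SE 0.14, 0.0626) with the trend removed.

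**Figure D3:**
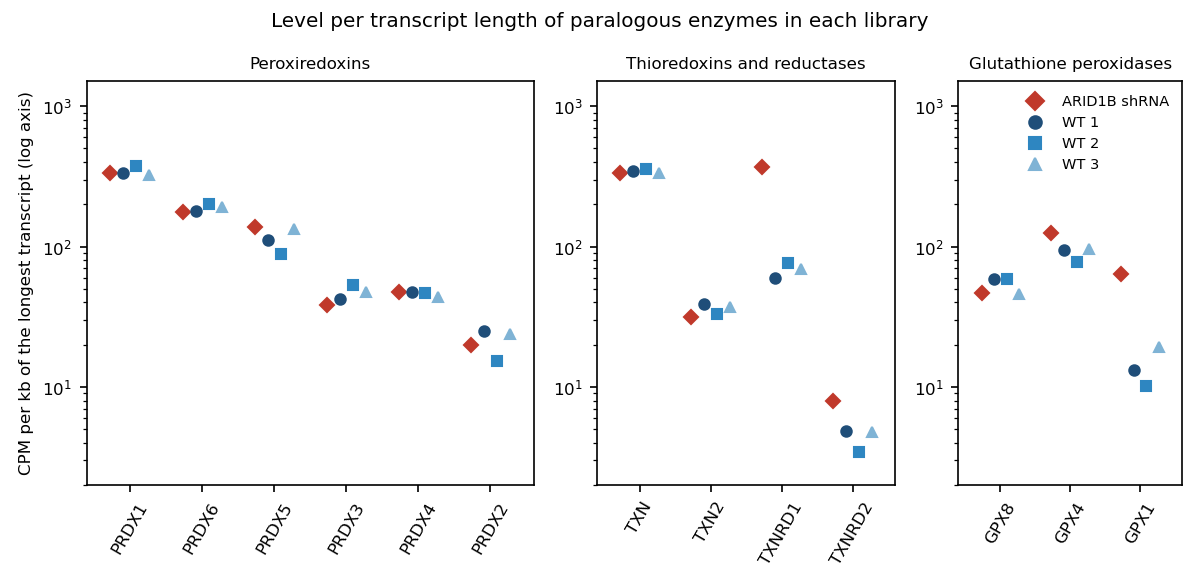
CPM per kilobase of the longest annotated transcript (log axis) for peroxiredoxins, thioredoxins with their reductases, and glutathione peroxidases; each point is a library, with the library labelled ARID1B shRNA leftmost. TXNRD1 in that library reaches 366 CPM per kb, above its own TXN at 335, while the wild-type points of TXNRD1 lie between 59.5 and 76.9.

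Per transcript length the peroxiredoxins ran, in wild-type mean CPM per kb, from 344 for PRDX1 through 191 for PRDX6, 111 for PRDX5, 47.7 for PRDX3 and 46.1 for PRDX4 to 21.4 for PRDX2. PRDX3 and PRDX4 overlapped between the wild-type libraries (42.6 to 53.3 against 43.8 to 47.8), and the other neighbours in that order did not. SRXN1 (ENSG00000271303.1), sulfiredoxin, which repairs over-oxidised peroxiredoxins and is a known NRF2 target, was nearly silent in wild type, with 1 count in wild-type library 1 and 0 counts in libraries 2 and 3. It had 55 counts, or 6.27 CPM, in the library labelled ARID1B shRNA. The ratio was 258, with a 95% counting interval of 44.5 to 10388, and SRXN1 passed (edgeR adjusted p = 0.0183). Since it entered the test only through the library in which it was high, it had to differ, and its call is given as a description. Its exons overlap those of another annotated gene on the same strand, so its level is uncertain. Of 17 other tested genes of the thioredoxin fold and thiol repair 2 (11.8%) rose, beside 3.65% of all tested genes. Without wild-type library 2 the number was 0, where 0.836% of all tested genes rose. SESN2, a sestrin, was at 268 CPM against 8.77, 14.4 and 17.2 CPM (log2 fold change 4.31, SE 0.33, edgeR adjusted p = 0.0174; 3.56 once the trend was removed, adjusted p = 0.0188; adjusted p = 0.051 without wild-type library 2). TXNDC5, a protein disulfide isomerase of the endoplasmic reticulum, was at 6.05 CPM against 0.543, 0.309 and 0.651 CPM (log2 fold change 3.55, SE 0.46, edgeR adjusted p = 0.0267; 0.0538 and 0.0531 without wild-type libraries 2 and 3). TXNDC5 too passed the filter on low counts only through the library labelled ARID1B shRNA, and it has no value at a mean count of at least 50.

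The enzymes that remove superoxide and hydrogen peroxide directly did not pass, in either direction and with edgeR, DESeq2 or limma-voom, and none had an unadjusted p below 0.05 in edgeR. SOD1, the cytosolic copper-zinc dismutase, was at 209 CPM in the library labelled ARID1B shRNA against 195, 189 and 163 CPM in wild-type libraries 1 to 3 (log2 fold change 0.20, SE 0.18, edgeR adjusted p = 0.513). CAT, the peroxisomal catalase, was at 31.6 CPM against 52.3, 35.2 and 45 CPM, below all 3 (log2 fold change -0.48, SE 0.28, edgeR adjusted p = 0.33). SOD2, the mitochondrial manganese dismutase and a known NF-kappaB target, was at 1502 CPM against 322, 4609 and 2362 CPM, so that wild-type library 2 held 14.3-fold the level of library 1 and the library labelled ARID1B shRNA fell between them. With that spread a log2 fold change of -0.69 carried an SE of 1.35 (edgeR adjusted p = 0.778), and leaving out wild-type library 2 gave 0.17.

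**Figure D4:**
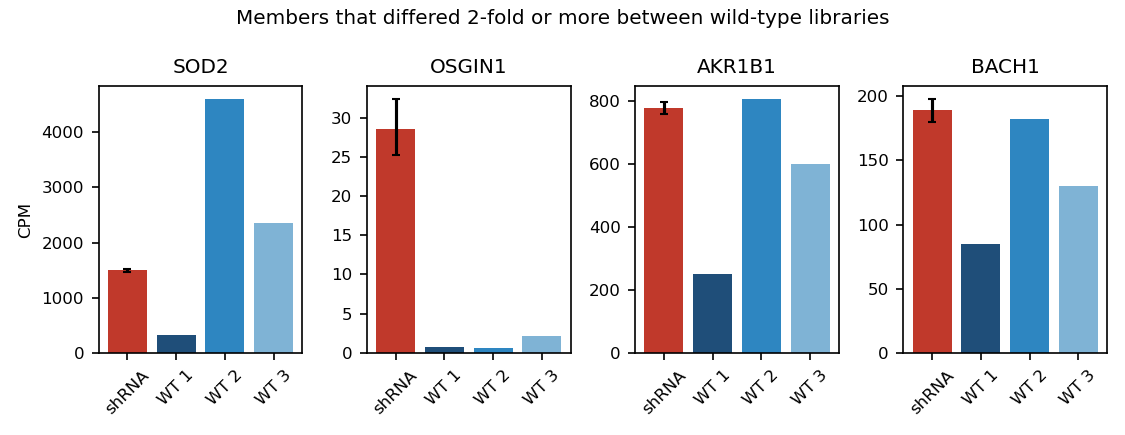
CPM per library, from 0, of the 4 members whose highest wild-type library was at least 2-fold the lowest; red bars are the library labelled ARID1B shRNA with its exact 95% Poisson interval, blue bars wild-type libraries 1, 2 and 3. In SOD2, AKR1B1 and BACH1 wild-type library 1 is lowest and library 2 highest, with SOD2 at 322 and 4609 CPM.

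The wild-type libraries also differed in 2 other members by more than 2-fold in the same order. AKR1B1, aldose reductase, was at 777 CPM in the library labelled ARID1B shRNA against 251, 808 and 600 CPM, within the wild-type range (log2 fold change 0.49, SE 0.60, edgeR adjusted p = 0.644). BACH1, described above, spanned 2.15-fold. In OSGIN1 the order was another one, with library 3 highest.

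NADPH feeds both reductase systems, and of its 4 member genes only ME1 passed, where 3.65% of all tested genes rose. ME1 (ENSG00000065833.7), the cytosolic malic enzyme and a known NRF2 target, was at 187 CPM in the library labelled ARID1B shRNA against 86.8, 102 and 84.4 CPM in wild-type libraries 1 to 3. The groups were well apart, with a log2 fold change of 1.04 (SE 0.18, edgeR adjusted p = 0.0392) and 1.28 with the trend removed (0.0141), although the adjusted p was 0.0574 and 0.0933 without wild-type libraries 2 and 3. PGD, which makes NADPH in the oxidative pentose phosphate pathway, was at 241 CPM against 213, 224 and 284 CPM (log2 fold change 0.00, SE 0.21, edgeR adjusted p = 0.993). ME1 and PGD both hold an antioxidant response element core in the windows shown above, and a link between motif and level was not tested. TALDO1 and TKT, of the pathway's non-oxidative branch, were at 248 CPM against 148, 135 and 196 CPM and at 298 CPM against 170, 145 and 263 CPM. Both lay above all 3 wild-type libraries with log2 fold changes of 0.63 (SE 0.24) and 0.63 (SE 0.34), neither passed (edgeR adjusted p = 0.173 and 0.307), and with the trend removed the changes were 0.26 and 0.18.

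Of 16 other tested genes of NADPH supply 2 (12.5%) rose, both in mitochondrial folate metabolism, beside 3.65% of all tested genes. Without wild-type library 3 the number called was 0, where 2.68% of all tested genes rose. ALDH1L2, which makes NADPH from formyl-tetrahydrofolate, was at 82.6 CPM in the library labelled ARID1B shRNA against 13.5, 21.6 and 19.2 CPM in wild type (log2 fold change 2.19, SE 0.28, edgeR adjusted p = 0.025; 0.0642 without wild-type library 3). MTHFD2, a methylene-tetrahydrofolate dehydrogenase, was at 418 CPM against 63.1, 123 and 90.9 CPM (log2 fold change 2.18, SE 0.34, edgeR adjusted p = 0.036; 0.121 without wild-type library 3).

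The group with the largest share of changed members was that of quinone, haem and carbonyl reduction. Of its 5 members 3 rose as counted, beside 3.65% of all tested genes, and 3 once the trend was removed, beside 1.93%. Without wild-type library 2 HMOX1 alone of them passed, where 0.836% of all tested genes rose. The group is small and its members were chosen with earlier results known, so its share is a description. HMOX1 (ENSG00000100292.12), haem oxygenase 1, which NRF2 induces and BACH1 represses, was at 125 CPM in the library labelled ARID1B shRNA, with a 95% interval of 118 to 133, against 18.1, 11.4 and 17.6 CPM in wild-type libraries 1 to 3. It was 7.99-fold the wild-type mean (log2 fold change 3.0, SE 0.28, edgeR adjusted p = 0.0183) and rose under every alternative, by 2.47 with the trend removed. NQO1 (ENSG00000181019.8), a quinone reductase and standard NRF2 target, was at 162 CPM against 66.2, 54.8 and 52.7 CPM. Its log2 fold change was 1.49 (SE 0.19, edgeR adjusted p = 0.0251), and 1.63 once the trend was removed; without wild-type libraries 2 and 3 the adjusted p was 0.0565 and 0.0502.

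OSGIN1 (ENSG00000140961.8), an oxidative stress-induced growth inhibitor, was at 28.6 CPM in the library labelled ARID1B shRNA, with a 95% interval of 25.2 to 32.4, against 0.776, 0.618 and 2.21 CPM in wild type, where it rested on 10, 8 and 34 counts. It was 23.8-fold the wild-type mean of 1.20 ± 0.879 CPM (SD, n = 3), with a log2 fold change of 4.53 (SE 0.59, edgeR adjusted p = 0.0289) and 3.31 once the trend was removed (0.0241). The adjusted p was 0.0574 without wild-type library 2, and the log2 fold change was 5.33 without library 3. The exons of OSGIN1 overlap those of another annotated gene on the same strand, so its level is uncertain. AKR1C1, an aldo-keto reductase with near-identical relatives whose reads may be split between them, was at 25.3 CPM against 10.5, 14.4 and 18.3 CPM (log2 fold change 0.81, SE 0.34, edgeR adjusted p = 0.203). Among 23 other tested genes of detoxification, export and iron storage 3 (13%) rose, beside 3.65% of all tested genes. Without wild-type library 2 the number called was 1, a rise, where 0.836% of all tested genes rose. CYP4F11, a cytochrome P450, was at 20 CPM against 2.25, 2.32 and 2.60 CPM (log2 fold change 3.05, SE 0.28, edgeR adjusted p = 0.0183). TRIM16L, a TRIM family gene, was at 118 CPM against 36.7, 49.9 and 48.2 CPM (log2 fold change 1.40, SE 0.22, edgeR adjusted p = 0.0342; 0.0576 and 0.0759 without wild-type libraries 2 and 3). FTH1, ferritin heavy chain, was at 920 CPM against 20.6, 33.5 and 73.2 CPM (log2 fold change 4.43, SE 0.62, edgeR adjusted p = 0.0342). Its value is uncertain because of many near-identical pseudogenes, and its adjusted p was 0.244 with no filter on low counts, 0.075 once the trend was removed and 0.0979 without wild-type library 2. Without library 3 its log2 fold change was 5.08.

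**Figure D5:**
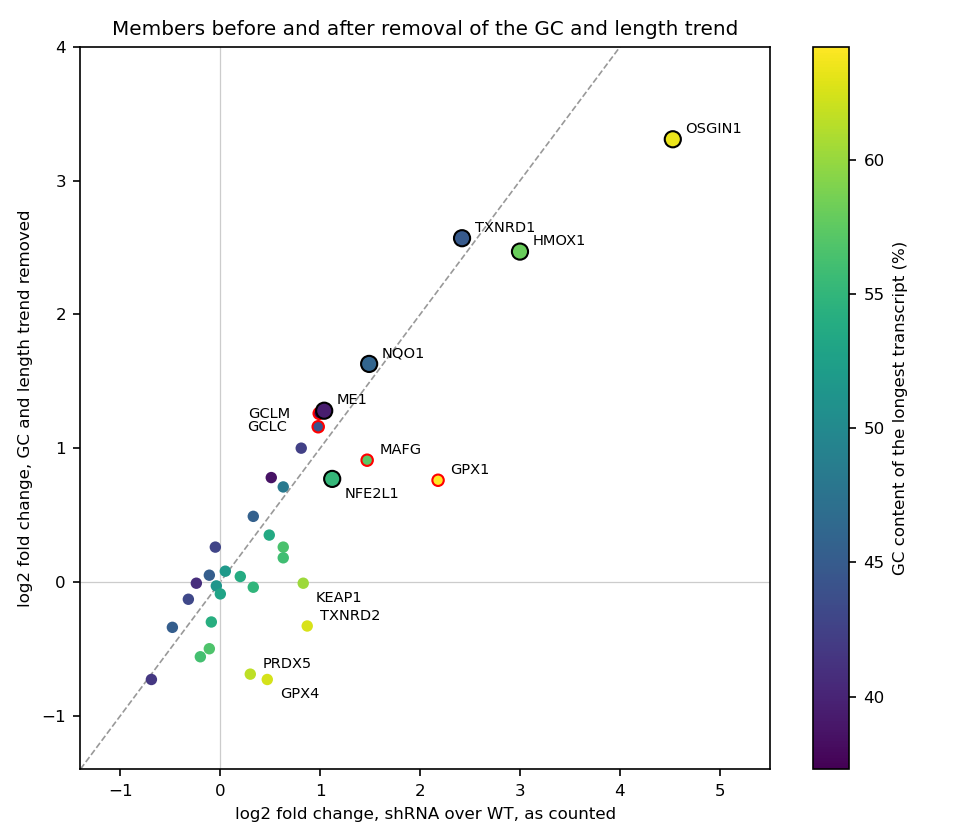
Log2 fold change of the library labelled ARID1B shRNA over wild type as counted (x axis) and with the GC and length trend of every library taken out (y axis), for the members other than SRXN1; colour is the GC content in percent, large black-ringed points passed in both fits and red-ringed points in 1 of them. Members of high GC content such as GPX1 (2.18 and 0.76) fall below the dashed line of equality, and those of low GC content such as GCLM (0.99 and 1.26) lie above it.

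GC content varied among the members from 37.3% for GCLM to 64.2% for GPX1, with a median of 53.2% against 48.1% for all tested genes. The trend removal therefore moved them in both directions. Members of high GC content lost most, namely GPX1, OSGIN1, GPX4, TXNRD2, PRDX5 and KEAP1. TXNRD1, NQO1 and ME1, at 44.8%, 46.0% and 39.5%, gained. Which of the fits is nearer to the cells' mRNA levels cannot be told from 1 library of the shRNA arm.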

How the data were processed

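Reads per gene were counted by the authors, 1 file per library, and deposited as raw counts with no normalization. The tools listed per the submitters' processing notes are bcl2fastq, HISAT2, HTSeq and DESeq2, and the build is GRCh37 (hg19). Their versions, the counting mode, the strand setting and the annotation release were not given in any source used here. Summary lines that name no gene stayed out of library sizes and tests; ambiguous reads came to 7.67% of genic reads in the library labelled ARID1B shRNA and 6.86% to 7.21% in wild type. Of 57820 identifiers 52332 (90.5%) were named, through a current symbol table or, where an identifier had been replaced (as for SOD2), GENCODE 29 names. Exons of 12 members overlap another gene in GENCODE 29, and 12 members have pseudogenes named after them. For 7 the overlap is on the same strand (NFE2L2, MAFG, BACH1, GCLC, SRXN1, SOD2 and OSGIN1). Without a stated strand setting such counts are uncertain. GC content and length are those of the longest GENCODE 29 transcript, which for some genes is not the main one.

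The test was edgeR 4.0.16 (R 4.3.3) on the deposited counts: filterByExpr (minimum count 10, minimum total 15), which left 17024 genes, TMM scaling, glmQLFit with robust shrinkage and glmQLFTest, with Benjamini-Hochberg adjustment over all tested genes. Its 2 residual degrees of freedom come from wild type, and it assumes that the lone library varies alike. The SE is the absolute log2 fold change divided by the square root of F. Poisson and counting intervals (SciPy 1.17.1) are 95% and cover counting error only. No libraries were duplicates, since for every pair the chi-square over genes divided by its degrees of freedom was at least 24.7. The GC and length trend was estimated per library by loess (span 0.3, degree 1, fitted on genes averaging 20 counts or more) and entered as offsets; 97.6% of tested genes have a GC value. The alternatives also included RLE or upper-quartile scaling, omitting the filter, a minimum mean count of 50, DESeq2 1.42.0, limma-voom (limma 3.58.1), no robust shrinkage and each wild-type library left out. The procedure was also run on simulated counts, which held only large changes and no GC trend between libraries. That run says nothing of single calls here. The members and lists were chosen with earlier results of these data known. All members are described; of the other lists, up to 3 genes with the smallest p among those that passed were named, with SLC7A11 added after its values were seen. GSTT1 and TXNIP were not analysed here. The deposited counts hold no other measure, and no batch is labelled that would allow it to be separated from the group.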

Additional observations from a re-analysis of the deposited data

How the results depend on the processing

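Of 395 values of single members under the alternatives, 353 kept their direction and their side of the threshold, 15 newly passed, 11 no longer passed and 16 changed sign, none of the last having passed as counted. With no filter on low counts 3226 of all tested genes, 16 members and 31 other pathway genes were called, against 763, 9 and 17 as reported; DESeq2 called 1775 genes and 26 other pathway genes. Leaving out each wild-type library gave 157 to 1189 genes, 3 to 10 members and 6 to 20 other pathway genes, the lowest each time without library 2; the cause was not tested. The median log2 fold change of the members was 0.39 with upper-quartile scaling, 0.61 with limma-voom, 0.22 with the GC and length trend removed and 0.43 to 0.53 without single wild-type libraries. Upper-quartile scaling moved the median of all tested genes by -0.12 on the log2 scale. ARID1B was -0.18 with the trend removed and 0.47 to 1.12 without single libraries.

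With the trend removed the sign turned for KEAP1 (-0.01), GPX4 (-0.73), ABCC1 (-0.04), TXN (0.26), TXNRD2 (-0.33), PRDX5 (-0.69), PRDX6 (0.05), PGD (-0.09) and CREBBP (-0.03). Upper-quartile scaling turned PRDX4 (-0.07) and PGD (-0.12), and no filter turned PGD (-0.02). Without single wild-type libraries PRDX1 ranged from -0.09 to 0.04, PRDX2 from -0.29 to 0.02, SOD2 from -1.21 to 0.17 and PGD from -0.08 to 0.14. Among all called genes 81.4% were higher as counted (621 higher, 142 lower) and 61.8% with the trend removed (329 and 203). SRXN1 has no value at a mean count of at least 50. No paired analysis was possible because the shRNA arm has 1 library. Counts in wild-type libraries 1 to 3 were few for SRXN1 (1, 0 and 0) and OSGIN1 (10, 8 and 34), which limits the precision of their wild-type levels.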

Other observations

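Summed over a role, the levels set the groups side by side in share of RNA. The 11 thioredoxin and peroxiredoxin members came to 2958 CPM in the library labelled ARID1B shRNA and to 1656, 1792 and 1712 CPM in wild-type libraries 1, 2 and 3, and TXNRD1 alone was 1567 of the 2958 CPM. The 8 glutathione members came to 1167 CPM against 823, 809 and 749 CPM, and the 5 regulators to 1238 CPM against 579, 730 and 724 CPM. The 4 NADPH members came to 974 CPM against 618, 607 and 827 CPM. All 36 members together came to 9198 CPM against 4593, 9659 and 7273 CPM, an order that SOD2 set, since without it the sums were 7697 CPM against 4270, 5051 and 4911 CPM.

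The ratio of the glutamate-cysteine ligase subunits lay within the wild-type range: GCLM over GCLC, in CPM per kilobase of the longest transcript, was 2.09 in the library labelled ARID1B shRNA and 1.89, 2.15 and 2.18 in wild-type libraries 1, 2 and 3. SLC7A11, which imports the cystine that glutathione synthesis draws on, was at 213 CPM in the library labelled ARID1B shRNA against 9, 32.1 and 22.3 CPM in wild type. Its log2 fold change of 3.33 (SE 0.58) passed narrowly (edgeR adjusted p = 0.0492), and did not without wild-type library 2 (0.0697) or 3 (0.166), with no filter (0.295), with upper-quartile scaling (0.0602), at a mean count of at least 50 (0.0552) or once the GC and length trend was taken out (0.0813).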
